A study of Mus musculus with 16 samples.

Results

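The myeloid C-type lectin receptors examined here were 9 genes, Clec4n, Clec4d, Clec4e, Clec5a, Clec12a, Clec4a2, Clec4a3, Clec10a and Clec9a, of the 20284 genes that had a probe on the array. They were taken by gene name, and each was measured by 1 probe printed as 1 spot, with no missing array. The study compared mouse myeloid progenitors with and without the transcription factor Irf8, and a progenitor line given IRF8 and C/EBPalpha, on 16 arrays in 8 groups of 2. The sorted bone marrow cells were monocyte-dendritic cell progenitors (MDPs) and the common monocyte progenitors (cMoPs) that arise from them. Their 4 groups were Irf8-deficient (Irf8KO) MDPs, wild-type (WT) MDPs, Irf8KO cMoPs and WT cMoPs, all untransduced. The other 4 groups were 32Dcl.3 cells, an established line of mouse myeloid progenitors kept in conditioned medium of WEHI3B cells, collected 3 days after retroviral transduction. They received mouse IRF8 and mouse C/EBPalpha together, IRF8 with an empty MSCV-puro vector, C/EBPalpha with an empty MSCV-CD8 vector, or both empty vectors, so every culture carried both vector backbones. The sorting gates, the age of the mice, the knockout allele and whether animals were pooled are not given in the sources used here. The design names 2 independent experiments. The p-values below rest on the spread between replicate arrays, pooled over the 4 progenitor or the 4 32Dcl.3 groups and moderated across genes. They do not measure the spread of the compared arrays alone.

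C-type lectin receptors are membrane proteins of myeloid cells that bind sugars, lipids or proteins of microbes and dying cells. The activating ones, such as Dectin-2 (Clec4n), MCL (Clec4d) and Mincle (Clec4e), pair with the adaptor FcRgamma (Fcer1g) and signal through the kinase Syk and the adaptor Card9 to cytokine genes. The inhibitory ones, such as DCIR (Clec4a2) and MICL (Clec12a), carry a tyrosine motif that recruits the phosphatases Ptpn6 and Ptpn11. Other members mark cell types: Clec9a, which binds actin exposed by dead cells, is a known marker of cross-presenting dendritic cells and their precursors.

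Values below are relative signals, the processed intensity of a probe divided by the 75th percentile of its own array. Changes are log2 differences with their standard error (SE, n = 2 arrays per group), from limma fits over all genes of the progenitor or the 32Dcl.3 arrays, and a gene was called at an adjusted p under 0.05. That percentile ranged over 67.8 to 81.0 intensity units among MDP arrays, 455.6 to 567.9 among cMoP arrays and 147.3 to 460.1 among 32Dcl.3 arrays. It differed by group. In 32Dcl.3 cells it was 154 and 147 with both factors and 367 and 369 with IRF8. It was 218 and 215 with C/EBPalpha and 460 and 445 with empty vectors. At each stage it was lower on Irf8KO than on WT arrays. Changes between groups therefore depend on this division, and other scalings served as alternatives. MDPs, cMoPs and 32Dcl.3 cells each had their own slide, so no level is compared between these 3 cell types. Within each slide the compared groups also lay in different columns or rows, so position and group cannot be told apart. RNA was measured in bulk, so that fewer cells of a type and less RNA per cell cannot be told apart.

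The arrays gave no check of the labels for the 2 manipulated genes. The Irf8 probe read 174 and 173 in Irf8KO MDPs against 260 and 250 in WT MDPs, and 57.1 and 58.7 in Irf8KO cMoPs against 160 and 162 in WT cMoPs. On the log2 scale it fell by 0.55 in Irf8KO MDPs and fell by 1.48 in Irf8KO cMoPs. It was not well above background in any 32Dcl.3 group, and neither was the Cebpa probe, although the transduced cDNAs were those 2 genes. The sources used here do not give where these probes lie relative to the knockout and the cDNAs. Csf1r, Kit and Cx3cr1, markers of both labelled progenitors, were present in the sorted cells. Flt3 read 15.3 to 27.1 on MDP arrays and 0.631 to 0.762 on cMoP arrays. Ly6c1, taken as a marker of cMoPs but not of MDPs, read 724 to 1141 on MDP arrays and 587 to 610 on cMoP arrays. In 32Dcl.3 cells Csf2rb and Mpo were present and Kit was not well above background. Xist was detected only on the MDP arrays, and the Y-linked Ddx3y and Eif2s3y only on the cMoP arrays.

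On chromosome 6 the genes Clec4n, Clec4d and Clec4e are direct neighbours, and Clec4a3 and Clec4a2 belong to the same cluster, with Clec4b2 between Clec4a2 and Clec4n. Clec12a and Clec9a lie in a second cluster of that chromosome, Clec5a lies apart from both, and Clec10a is on chromosome 11. Upstream sequence is shown for 4 genes: the neighbours Clec4d and Clec4e, whose change with the 2 factors together exceeded the sum of the single changes, and Clec5a and Clec12a, where it did not. Each is the 250 bases before a RefSeq transcription start (build GRCm38.p6, which is not the mm9 build of the array files), written 5′ to 3′ on the gene's strand. The windows of Clec4d, Clec4e and Clec5a adjoin the annotated gene. That of Clec12a precedes a later start and lies inside the annotated gene, which begins at chr6:129349783. Capitals mark matches to TTGCNNAA on either strand, a form of the palindromic site that C/EBP proteins bind. They lie at chr6:123261857-123262106 (plus strand) for Clec4d, chr6:123289872-123290121 (minus strand) for Clec4e, chr6:40585806-40586055 (minus strand) for Clec5a and chr6:129349994-129350243 (plus strand) for Clec12a.
Clec4d: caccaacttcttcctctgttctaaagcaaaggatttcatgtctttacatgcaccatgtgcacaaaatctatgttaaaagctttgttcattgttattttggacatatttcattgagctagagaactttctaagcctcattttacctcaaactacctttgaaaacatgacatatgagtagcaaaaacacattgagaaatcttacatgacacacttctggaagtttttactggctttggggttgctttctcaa
Clec4e: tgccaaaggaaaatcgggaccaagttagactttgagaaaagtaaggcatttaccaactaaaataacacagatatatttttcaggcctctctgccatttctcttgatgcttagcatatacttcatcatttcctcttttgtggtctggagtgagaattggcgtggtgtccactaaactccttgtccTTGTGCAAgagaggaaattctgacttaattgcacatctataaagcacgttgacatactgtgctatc
Clec5a: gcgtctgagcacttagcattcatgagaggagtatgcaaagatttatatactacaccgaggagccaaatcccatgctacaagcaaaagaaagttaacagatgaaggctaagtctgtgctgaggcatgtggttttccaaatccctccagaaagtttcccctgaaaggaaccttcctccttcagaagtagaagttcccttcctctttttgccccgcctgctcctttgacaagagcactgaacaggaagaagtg
Clec12a: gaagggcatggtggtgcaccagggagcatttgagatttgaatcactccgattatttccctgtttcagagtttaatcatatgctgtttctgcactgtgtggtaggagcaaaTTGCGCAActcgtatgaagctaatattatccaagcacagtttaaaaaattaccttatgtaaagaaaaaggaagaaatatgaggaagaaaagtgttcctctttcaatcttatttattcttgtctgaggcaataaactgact

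The Clec4e window held 1 match, TTGTGCAA on the minus strand 66 to 59 bases before the start. The Clec12a window held 1, the palindrome TTGCGCAA 140 to 133 bases before the later start and so inside the annotated gene. None was found in the Clec4d and Clec5a windows, nor in those of Clec4a2, Clec4a3 and Clec9a, the other members with a listed promoter. Of 32851 RefSeq promoter windows of the same length 9.56% held this motif. The ETS-IRF composite element (GGAA, any 2 bases, GAAA), which IRF8 binds with an ETS factor, and an IRF response element (GAAA, any 2 bases, GAAA) were searched on both strands too, and the 2 motifs can overlap. Neither was found in any of the 7 members' windows, and they occurred in 2.3% and 2.98% of all windows. These are matches of letters in a short window and say nothing of binding.

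**Figure D1:**
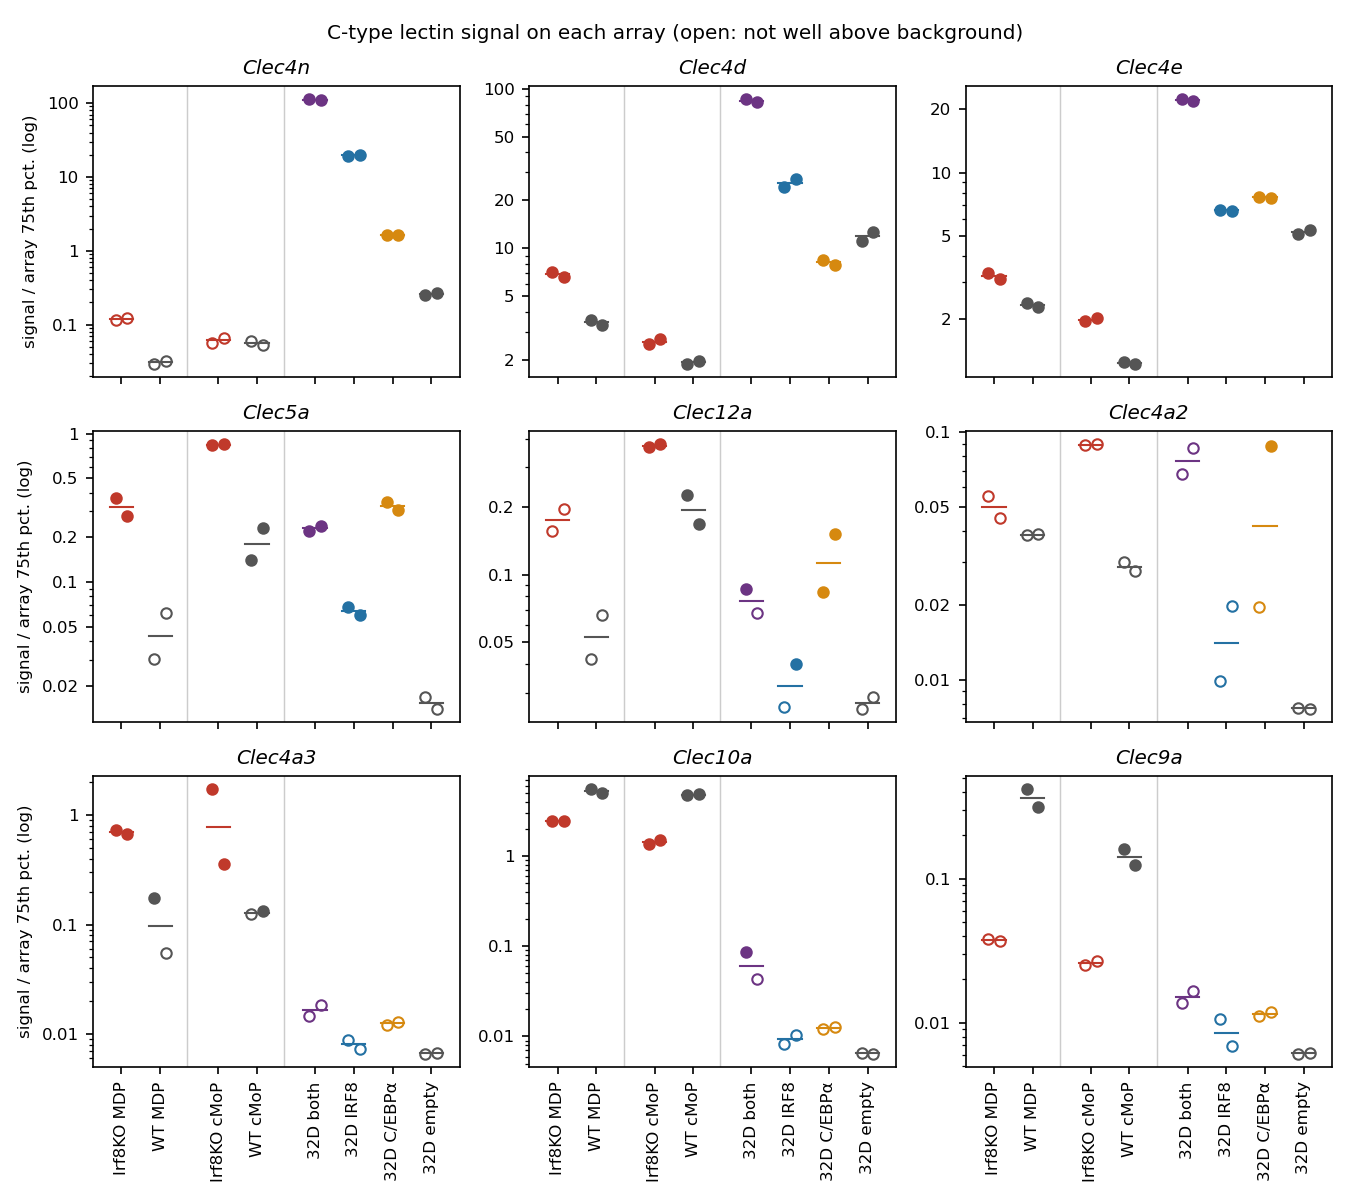
Relative signal (multiple of the array's 75th percentile, log axis) of each lectin gene on every array, 2 points per group, with a line at the mean of the log2 values. Filled points were well above background and open points were not, so open points show only that the probe was dim. Clec4n, Clec4d and Clec4e were highest in 32Dcl.3 cells with both factors, whereas Clec5a and Clec12a had their highest 32Dcl.3 means with C/EBPalpha alone. For Clec12a those arrays overlapped the ones with both factors.

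Clec4n, which encodes Dectin-2, a receptor for fungal mannans, had the largest measured change of the 5 lectin genes tested in 32Dcl.3 cells. Its relative signal was 113 and 110 with both factors, 19.3 and 19.8 with IRF8, 1.65 and 1.64 with C/EBPalpha, and 0.252 and 0.27 with empty vectors. The 4 groups stood in this order without overlap, and replicate arrays differed by far less than neighbouring groups. Over empty vectors, Clec4n rose by 8.74 ± 0.041 (428-fold, adjusted p = 9.61e-18) with both factors, by 6.23 ± 0.041 (75.2-fold, adjusted p = 3.1e-16) with IRF8 and by 2.66 ± 0.041 (6.31-fold, adjusted p = 8.11e-14) with C/EBPalpha. Cells with both factors also stood 2.51 above cells with IRF8 alone (adjusted p = 8.26e-14) and 6.09 above cells with C/EBPalpha alone (adjusted p = 2.32e-16). On the log2 scale the single changes added to 8.89, close to the 8.74 measured with both. The interaction, which is 0 when changes add on the log2 scale, was -0.15 (95% interval -0.27 to -0.021, adjusted p = 0.0476). Its sign did not hold, since it was 0.19 (adjusted p = 0.0121) after quantile normalization.

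In the sorted progenitors Clec4n was not well above background on any array. Its values were 0.114 and 0.125 in Irf8KO MDPs against 0.0299 and 0.0325 in WT MDPs, and 0.0572 and 0.0669 in Irf8KO cMoPs against 0.0609 and 0.0525 in WT cMoPs. The faintest probe called well above background read 0.131 to 0.169 on MDP arrays and 0.107 to 0.119 on cMoP arrays, so all of these lie below the level at which an order can be read, and the gene was not tested there.

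Clec4d, which encodes MCL, the partner that brings Mincle to the cell surface, responded in a different form. It read 86.4 and 82.8 with both factors, 24.2 and 27.1 with IRF8, 8.44 and 7.9 with C/EBPalpha, and 11.1 and 12.7 with empty vectors. C/EBPalpha alone was thus the lowest group, and no groups overlapped. Clec4d rose by 2.83 ± 0.063 with both factors (7.11-fold, adjusted p = 6.54e-13) and by 1.11 ± 0.063 with IRF8 (2.16-fold, adjusted p = 4.23e-08), and fell by 0.54 ± 0.063 with C/EBPalpha (adjusted p = 6.37e-06), each over empty vectors. The single changes added to 0.57, and the interaction was 2.26 ± 0.090 (95% interval 2.07 to 2.46, adjusted p = 1.74e-09). C/EBPalpha therefore went with a lower Clec4d signal in cells without IRF8 and with a higher one in cells with it, where both factors stood 1.72 ± 0.063 above IRF8 alone (adjusted p = 8.9e-11) and 3.37 ± 0.063 above C/EBPalpha alone (adjusted p = 8.29e-13).

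Clec4e encodes Mincle, a receptor for mycobacterial cord factor and for a nuclear protein of dying cells. It read 22.3 and 22 with both factors, 6.61 and 6.59 with IRF8, 7.64 and 7.58 with C/EBPalpha, and 5.12 and 5.34 with empty vectors. The arrays of no 2 groups overlapped, and the combination stood well apart from either factor alone. Over empty vectors the changes were 2.08 ± 0.033 with both (4.24-fold, adjusted p = 3.72e-14), 0.34 ± 0.033 with IRF8 (1.26-fold, adjusted p = 5.42e-06) and 0.54 ± 0.033 with C/EBPalpha (1.46-fold, adjusted p = 1.28e-08). The rise with C/EBPalpha and the size of that with IRF8 depend on the scaling, although the IRF8 rise was 0.30 to 0.38 over the alternatives. Before division by the array percentile, Clec4e read 2427 and 2429 with IRF8, 1667 and 1627 with C/EBPalpha and 2355 and 2379 with empty vectors. Cells with both factors stood 1.75 ± 0.033 above IRF8 alone (adjusted p = 2.64e-13) and 1.54 ± 0.033 above C/EBPalpha alone (adjusted p = 1.99e-12). The single changes added to 0.88, and the interaction was 1.21 ± 0.047 (95% interval 1.10 to 1.31, adjusted p = 1.45e-09). Both Clec4d and Clec4e thus rose further with the combination than the sum of the single changes on the log2 scale, under each of 18 alternative settings (1.88 to 2.36 for Clec4d and 0.82 to 1.36 for Clec4e).

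In the progenitors the direction of both genes was higher without Irf8. Clec4d read 7.15 and 6.66 in Irf8KO MDPs against 3.57 and 3.3 in WT MDPs, a rise of 1.01 ± 0.064 (adjusted p = 6.15e-07). In cMoPs it read 2.51 and 2.69 in Irf8KO cells against 1.89 and 1.96 in WT cells, a rise of 0.43 ± 0.064 (adjusted p = 0.000221) that was not called when arrays were scaled by their median (0.12, adjusted p = 0.25). Clec4e read 3.31 and 3.12 in Irf8KO MDPs against 2.39 and 2.28 in WT MDPs, and 1.95 and 2.04 in Irf8KO cMoPs against 1.25 and 1.23 in WT cMoPs. It rose by 0.46 ± 0.065 in Irf8KO MDPs (adjusted p = 0.000199) and by 0.69 ± 0.065 in Irf8KO cMoPs (adjusted p = 7.72e-06). At the main settings the 2 neighbours were therefore higher both in progenitors that lack Irf8 and in 32Dcl.3 cells that were given it. For Clec4e the rise with IRF8 was 0.34, a size that depends on the division by the array percentile.

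**Figure D2:**
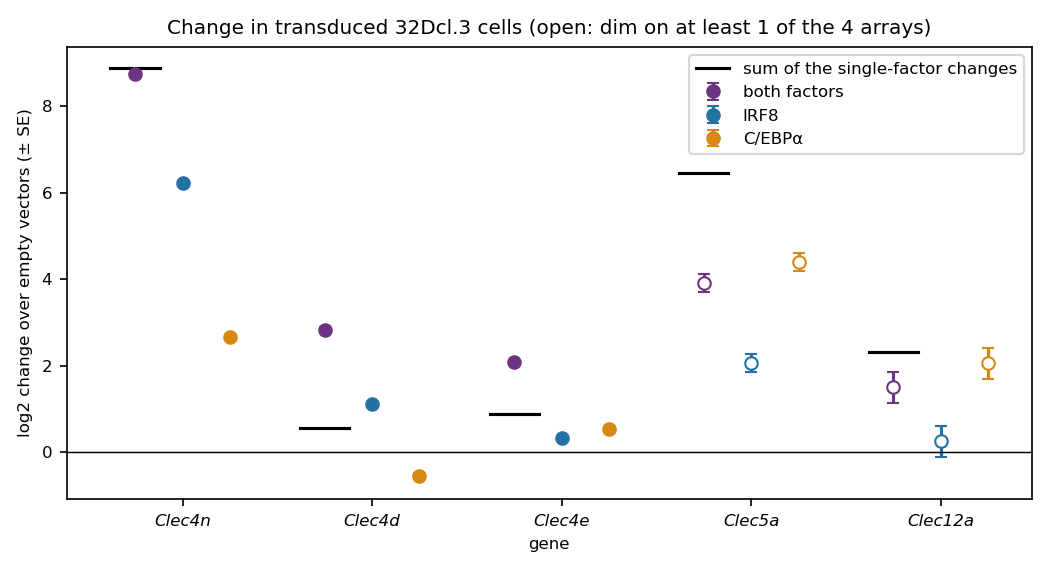
Log2 change (± SE) over empty vectors of the 5 lectin genes tested in 32Dcl.3 cells, with both factors, IRF8 and C/EBPalpha from left to right. Black bars are the sums of the single-factor changes. Open points rest on a probe that was dim on at least 1 array. The change with both factors lies above the bar for Clec4d (2.83 against 0.57) and Clec4e (2.08 against 0.88) and below it for Clec5a (3.90 against 6.45).

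Clec5a encodes MDL-1, an activating receptor that signals through the adaptors DAP12 (Tyrobp) and DAP10 (Hcst). In 32Dcl.3 cells it was highest with C/EBPalpha alone. Its relative signal was 0.222 and 0.239 with both factors, 0.068 and 0.0601 with IRF8, 0.344 and 0.304 with C/EBPalpha, and 0.0168 and 0.0141, not well above background, with empty vectors. Because the empty-vector level is only an upper bound, the rises are given as minimum folds, set against the faintest probe well above background on each empty-vector array. They were at least 8.03-fold with both factors (adjusted p = 2.19e-09), at least 2.23-fold with IRF8 (adjusted p = 6.57e-06) and at least 11.3-fold with C/EBPalpha (adjusted p = 1.07e-09). These minima hold for the main settings only. Over the alternatives the lowest log2 changes were 1.65 with both factors, 0.47 with IRF8 and 1.78 with C/EBPalpha.

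The combination gave no more Clec5a than C/EBPalpha alone. Both factors stood -0.49 ± 0.21 from C/EBPalpha alone (95% interval -0.94 to -0.036, adjusted p = 0.0505), with no overlap of the arrays. That difference just missed the threshold and passed it under 5 alternative settings, among them array median scaling (-0.84, adjusted p = 0.00223). Against IRF8 alone the combination was 1.85 ± 0.21 higher (adjusted p = 3.84e-06). The interaction was -2.54 ± 0.29 (adjusted p = 1.49e-05), and it was -1.64 with the empty-vector arrays set at the level of the faintest detected probe. Its sign was thus opposite to that of Clec4d and Clec4e.

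Clec5a was also higher without Irf8 in both progenitors. It read 0.367 and 0.28 in Irf8KO MDPs against 0.0304 and 0.0618 in WT MDPs, where it was not well above background. The rise was thus at least 2.31-fold at the main settings (adjusted p = 6.82e-05), and the lowest log2 change over the alternatives was 0.39. In cMoPs, where every array measured it, it read 0.838 and 0.848 in Irf8KO cells against 0.14 and 0.232 in WT cells, a rise of 2.23 ± 0.35 (4.68-fold, adjusted p = 0.000317). The WT cMoP arrays lay further apart than the Irf8KO cMoP arrays, and the genotypes did not overlap.

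Clec12a encodes MICL, an inhibitory receptor that binds uric acid crystals. In 32Dcl.3 cells it was close to the limit of detection, at 0.0859 and 0.0678 with both factors, 0.0259 and 0.0401 with IRF8, 0.0836 and 0.151 with C/EBPalpha, and 0.0255 and 0.0286 with empty vectors. It was well above background on both C/EBPalpha arrays, on 1 array each with both factors and with IRF8, and on no empty-vector array. Over empty vectors it rose at least 3.91-fold with C/EBPalpha (adjusted p = 0.000196) at the main settings, and the lowest log2 change over the alternatives was 1.07. With both factors Clec12a was called higher (adjusted p = 0.0019) but not after quantile normalization (0.74, adjusted p = 0.0816), and no fold is given because 1 array of that group was dim as well. Before division by the array percentile, it read 13.2 and 9.99 with both factors and 11.7 and 12.7 with empty vectors. With IRF8 alone the change was 0.26 ± 0.36 (adjusted p = 0.598), and the arrays overlapped those with empty vectors. It was called on the deposited values (0.89, adjusted p = 0.0384) and with normexp (0.27, adjusted p = 0.00781). Both factors differed from C/EBPalpha alone by -0.56, with overlapping arrays (95% interval -1.34 to 0.23, adjusted p = 0.179), which passed the threshold without the first C/EBPalpha array (-0.99, adjusted p = 0.0434), with array median scaling (-0.91, adjusted p = 0.0249), with quantile normalization (-0.94, adjusted p = 0.0385) and on the deposited values (-1.14, adjusted p = 0.00745). With normexp it was 0.14. The interaction was -0.81 ± 0.50 (95% interval -1.92 to 0.29, adjusted p = 0.194), and it was called with array median scaling (-1.20, adjusted p = 0.0397) and on the deposited values (-2.03, adjusted p = 0.00267).

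Clec12a stood 1.25 ± 0.36 higher with both factors than with IRF8 alone (adjusted p = 0.00661), although 2 of those 4 arrays did not measure it well above background. This call was lost without the first IRF8 array (0.93, adjusted p = 0.0642), after scaling by the array median (0.55, adjusted p = 0.153), after quantile normalization (0.49, adjusted p = 0.237) and on the deposited values (0.30, adjusted p = 0.402). In cMoPs Clec12a read 0.369 and 0.379 in Irf8KO cells against 0.225 and 0.167 in WT cells, a rise of 0.95 ± 0.29 (adjusted p = 0.0187). The cMoP call was lost without WT array 2 (0.73, adjusted p = 0.139), without Irf8KO array 1 (0.97, adjusted p = 0.0816), without Irf8KO array 2 (0.93, adjusted p = 0.0908) and after scaling by the array median (0.63, adjusted p = 0.0683). In MDPs it was not well above background in either genotype, at 0.156 and 0.195 in Irf8KO cells against 0.0421 and 0.066 in WT cells, so that no fold is given despite an adjusted p of 0.000683.

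Of the DCIR genes, Clec4a2, the inhibitory DCIR, was well above background on 1 array only, the second with C/EBPalpha (0.0878, against 0.0198 on the first), and was not tested. Clec4a3, a close relative in the same cluster, was not well above background in any 32Dcl.3 group, at 0.00664 to 0.0185. In progenitors Clec4a3 was higher without Irf8. It read 0.722 and 0.666 in Irf8KO MDPs against 0.174 and 0.055 in WT MDPs, and 1.72 and 0.357 in Irf8KO cMoPs against 0.124 and 0.133 in WT cMoPs, where 1 WT array of each stage was not well above background. With the dim WT values taken as measured, the rise was 2.83 ± 0.65 in MDPs (adjusted p = 0.00438, and 2.00 to 3.65 when 1 array was left out) and 2.61 ± 0.65 in cMoPs (adjusted p = 0.00608). The 2 Irf8KO cMoP arrays differed more from each other than those of any other group for this gene, and without array 1 the rise was 1.47 (adjusted p = 0.0505). In MDPs the call was lost with another background correction (normexp, 0.72, adjusted p = 0.0957).

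Clec10a and Clec9a moved the other way. Clec10a, a lectin for galactose-type sugars found on macrophages and dendritic cells, read 2.45 and 2.45 in Irf8KO MDPs against 5.49 and 4.99 in WT MDPs. In cMoPs it read 1.37 and 1.52 in Irf8KO cells against 4.74 and 4.82 in WT cells. It fell by 1.09 ± 0.068 in Irf8KO MDPs (adjusted p = 4.97e-07) and fell by 1.73 ± 0.068 in Irf8KO cMoPs (adjusted p = 8.6e-09), with every Irf8KO array below every WT array of its stage. Clec10a was not well above background on any 32Dcl.3 array except the first with both factors (0.0858, against 0.0435 on the second).

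Clec9a was detected in WT progenitors only. It read 0.0379 and 0.037, not well above background, in Irf8KO MDPs against 0.417 and 0.316 in WT MDPs. In cMoPs it read 0.0252 and 0.0267, again not well above background, in Irf8KO cells against 0.162 and 0.125 in WT cells. At the main settings the level was at least 2.20-fold lower in Irf8KO MDPs (adjusted p = 3.03e-05) and at least 1.23-fold lower in Irf8KO cMoPs (adjusted p = 0.000169). Over the alternatives the log2 change was -3.72 to -0.58 in MDPs and -2.77 to -0.96 in cMoPs. No 32Dcl.3 array measured it.

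**Figure D3:**
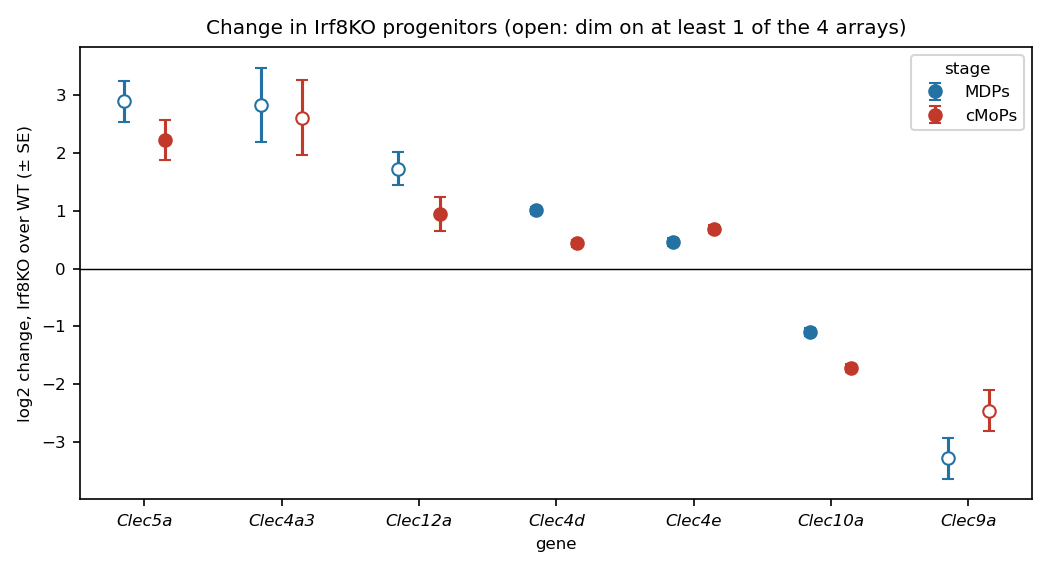
Log2 change (± SE) in Irf8KO over WT cells of the 7 lectin genes tested in progenitors, for MDPs (blue) and cMoPs (red). Open points rest on a probe that was dim on at least 1 of the 4 arrays. Clec5a, Clec4a3, Clec12a, Clec4d and Clec4e lie above 0 and Clec10a and Clec9a below it at both stages.

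Of the 9 genes, 7 passed the filter on dim probes in progenitors, 5 higher and 2 lower in Irf8KO cells at each stage. Over all 11964 genes tested 51.4% were called in MDPs (22.8% higher and 28.6% lower) and 54.1% in cMoPs (22.9% higher and 31.1% lower). Clec4d, Clec4e and Clec10a were well above background on all 8 arrays, whereas Clec5a, Clec4a3, Clec12a and Clec9a were in the test through the groups in which they were bright, so their counts support nothing. Clec4d, Clec4e and Clec10a changed by 1.01, 0.46 and -1.09 in Irf8KO MDPs and by 0.43, 0.69 and -1.73 in Irf8KO cMoPs. The median over all genes was -0.024 in MDPs and -0.025 in cMoPs.

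In 32Dcl.3 cells 5 of the 9 passed the filter, and all 5 were called higher with both factors, where 84.8% of 13339 genes were called (38% higher and 46.8% lower). With IRF8, 4 were higher and none lower, beside 48.1% called (22.7% higher and 25.4% lower). With C/EBPalpha, 4 were higher and 1 lower, beside 78.8% called (31.6% higher and 47.2% lower). Clec4n, Clec4d and Clec4e were well above background on all 8 arrays, whereas Clec5a and Clec12a were in the test through the groups in which they were bright, so their counts support nothing. Over empty vectors Clec4n, Clec4d and Clec4e changed by 8.74, 2.83 and 2.08 with both factors. With IRF8 their changes were 6.23, 1.11 and 0.34, and with C/EBPalpha 2.66, -0.54 and 0.54. The median over all genes was -0.096 with both factors, -0.031 with IRF8 and -0.14 with C/EBPalpha. These 3 comparisons share the empty-vector arrays. Both factors against C/EBPalpha alone gave 3 of the 5 higher and none lower, beside 72.4% called (34.4% higher and 37.9% lower), and against IRF8 alone 5 higher, beside 82.2% called (36.1% higher and 46.1% lower). The interaction was called for 4 of the 5, positive for Clec4d and Clec4e and negative for Clec4n and Clec5a, beside 55.7% of all genes (23.8% positive and 31.9% negative). The negative sign for Clec4n did not hold over the alternatives, at 0.19 after quantile normalization and 0.18 on the deposited values.

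The effect of Irf8 loss differed between the stages for 2 of the 7 genes, where 24.9% of all genes were called (11.6% positive and 13.3% negative). For Clec4d the rise was smaller in cMoPs, with a difference of -0.57 ± 0.091 (cMoPs minus MDPs, 95% interval -0.78 to -0.37, adjusted p = 0.00118). For Clec10a the fall was larger in cMoPs, with a difference of -0.63 ± 0.096 (-0.84 to -0.42, adjusted p = 0.000931). Clec4e differed by 0.22 (0.020 to 0.43, adjusted p = 0.103). Intervals were wider for Clec5a (-0.66, -1.76 to 0.43), Clec4a3 (-0.22, -2.25 to 1.82), Clec12a (-0.78, -1.70 to 0.14) and Clec9a (0.82, -0.29 to 1.93), each dim on some of the arrays, and none of these was called. Stage and slide coincide, and each stage's effect was taken within its own slide.

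Genes for adaptors and signalling proteins of these receptors changed in both directions. Of 20 listed genes 19 were tested in progenitors, with 6 higher and 2 lower in Irf8KO MDPs (median 0.10) and 10 higher and 3 lower in Irf8KO cMoPs (median 0.12). Over all genes 22.8% were higher and 28.6% lower in Irf8KO MDPs, and 22.9% higher and 31.1% lower in Irf8KO cMoPs. Relb, an NF-kappaB subunit, rose by 1.04 in Irf8KO MDPs and 1.46 in Irf8KO cMoPs. Tyrobp, the DAP12 adaptor of Clec5a, rose by 0.73 in Irf8KO MDPs, and Hcst, its DAP10 partner, by 0.46 in Irf8KO cMoPs, which was not called with array median scaling (0.14, adjusted p = 0.0897). Malt1, the protease that acts with Card9 and Bcl10, fell by 0.39 in Irf8KO MDPs and fell by 0.61 in Irf8KO cMoPs.

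In 32Dcl.3 cells 17 of the 20 were tested. Of these 11 were higher and 4 lower with both factors (median 0.45), 12 higher and 2 lower with IRF8 (median 0.29), and 9 higher and 6 lower with C/EBPalpha (median 0.41). Over all genes 38% were higher and 46.8% lower with both factors. The shares were 22.7% and 25.4% with IRF8 and 31.6% and 47.2% with C/EBPalpha. Prkcd, the kinase that activates Card9, rose by 2.35 with both factors, 1.39 with IRF8 and 1.12 with C/EBPalpha. Tyrobp rose by 1.93 with both factors, 0.83 with IRF8 and 1.27 with C/EBPalpha. Ptpn11, a phosphatase recruited by inhibitory receptors, fell by 1.02 with both factors, fell by 0.15 with IRF8 and fell by 0.56 with C/EBPalpha.

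Among 38 other C-type lectin genes 20 were tested in progenitors, with 8 higher and 5 lower in Irf8KO MDPs (median 0.28) and 7 higher and 5 lower in Irf8KO cMoPs (median 0.15). For these counts and those in 32Dcl.3 cells, the shares over all genes are the ones given beside the signalling genes. In Irf8KO cMoPs Clec4b2, which lies between Clec4a2 and Clec4n on chromosome 6, rose by 3.08, and Olr1, a receptor for oxidised lipoprotein, by 2.62. Thbd, thrombomodulin, fell by 2.09 in Irf8KO MDPs and fell by 3.85 in Irf8KO cMoPs. Asgr2, a galactose-binding receptor, fell by 0.60 in Irf8KO MDPs and fell by 1.46 in Irf8KO cMoPs. In 32Dcl.3 cells 20 were tested, with 14 higher and 4 lower with both factors (median 0.52), 10 higher and 5 lower with IRF8 (median 0.22), and 12 higher and 5 lower with C/EBPalpha (median 0.46). Clec4b2 rose by 5.89 with both factors, 1.55 with IRF8 and 5.48 with C/EBPalpha. Asgr2 rose by 2.77 with both factors and 2.71 with IRF8, and Cd209d rose by 2.14 with both factors and 0.84 with IRF8.

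**Figure D4:**
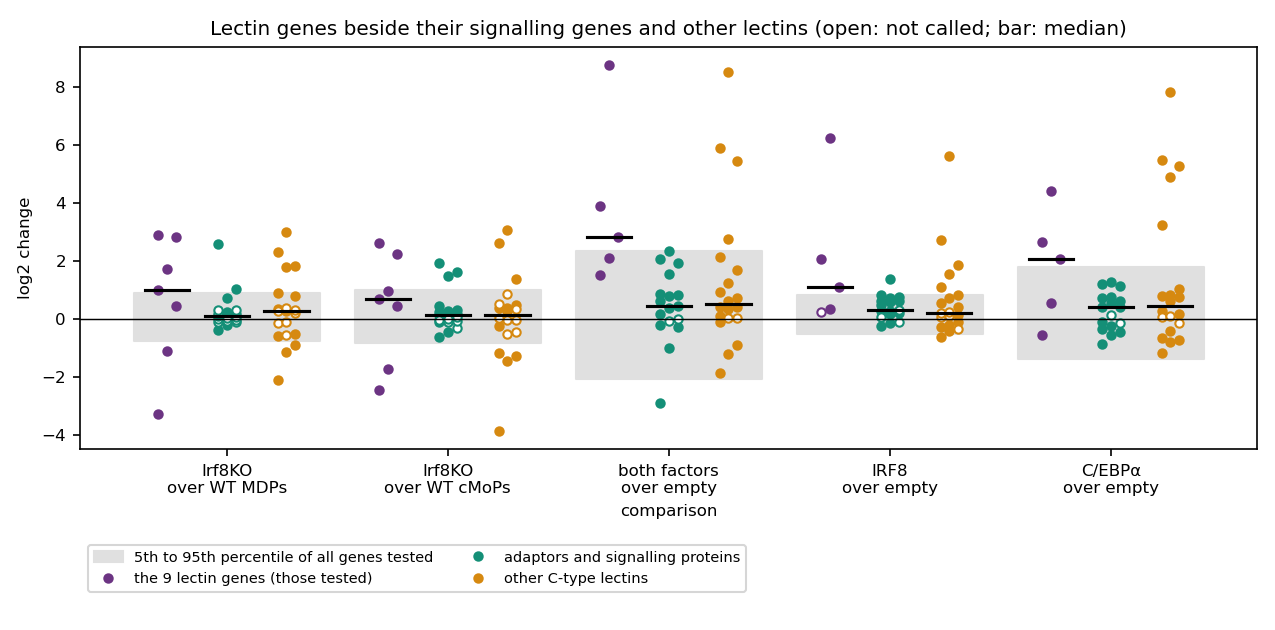
Log2 change of the lectin genes tested (purple), of the listed adaptor and signalling genes (green) and of the other C-type lectin genes (orange) in 5 comparisons. Bars are medians, grey bands run from the 5th to the 95th percentile of all genes tested, and open points were not called. The medians of the signalling genes are between 0.10 and 0.45, and those of the other lectins between 0.15 and 0.52.

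Marker genes of other cells moved in the same comparisons, whose shares of all genes called are given above beside the signalling genes. The summed relative signal of 8 late neutrophil genes was 768.7 to 795.0 in Irf8KO cMoPs against 47.5 to 47.9 in WT cMoPs, with all 8 genes higher. It was 105.6 to 108.1 in Irf8KO MDPs against 11.4 to 13.3 in WT MDPs, with 4 genes higher and 3 lower. Of the defining genes, Camp was well above background in WT MDPs only, and Ltf and Ngp on no MDP array. Any call of Ltf or Ngp in MDPs therefore rests on dim values. In 32Dcl.3 cells this sum was 1775.7 to 1782.1 with both factors (8 of 8 higher), 47.04 to 47.07 with IRF8 (2 higher, 5 lower), 3120.7 to 3165.2 with C/EBPalpha (8 of 8 higher) and 71.0 to 72.5 with empty vectors. Clec5a, like this sum, had its highest 32Dcl.3 values with C/EBPalpha. The mean of Clec12a was highest there too, but its arrays overlapped those with both factors. The part of such cells in the results of Clec5a and Clec12a was not tested.

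The 8 dendritic cell genes summed to 131.7 to 133.3 in Irf8KO MDPs against 95.2 to 99.6 in WT MDPs (3 higher, 1 lower of 6 tested) and to 216.2 to 225.6 in Irf8KO cMoPs against 191.2 to 196.2 in WT cMoPs (3 higher, 1 lower of 6). In 32Dcl.3 cells they summed to 986 to 1012 with both factors, with all 7 tested genes higher, 382 to 400 with IRF8 (3 higher), 344 to 351 with C/EBPalpha (3 higher, 1 lower) and 226 to 241 with empty vectors. H2-Ab1, counted as higher with C/EBPalpha, was well above background neither there nor with empty vectors. Xcr1, which with Clec9a defines the cross-presenting dendritic cell, was not well above background on any array. The 8 monocyte and macrophage genes summed to 981 to 988 in Irf8KO MDPs against 1354 to 1380 in WT MDPs (3 higher, 2 lower of 6) and to 694 to 703 in Irf8KO cMoPs against 731 to 752 in WT cMoPs (2 higher, 2 lower of 6). In 32Dcl.3 cells they summed to 204 to 208 with both factors (4 higher, 2 lower of 6), 156 to 158 with IRF8 (5 higher, 1 lower), 59.5 to 62.0 with C/EBPalpha (4 higher, 2 lower) and 63.6 to 64.6 with empty vectors. In the progenitors a single gene made up most of each of these sums. Siglech read 216 and 207 in Irf8KO cMoPs and 186 and 191 in WT cMoPs. Ly6c1 read 732 and 724 in Irf8KO MDPs and 1141 and 1115 in WT MDPs. The part of dendritic cells, monocytes and macrophages in the lectin results was not tested.

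Basophil and mast cell genes summed to 3.04 to 3.46 in Irf8KO MDPs against 18.3 to 18.7 in WT MDPs (all 6 tested lower) and to 5.81 to 6.22 in Irf8KO cMoPs against 5.46 to 5.53 in WT cMoPs (1 higher, 4 lower of 6). Cpa3 and Prg2, counted as lower in cMoPs, were well above background on no cMoP array. Cpa3, Prg2 and Fcer1a were in the test only through WT MDPs, in which they were bright, so their counts support nothing. Erythroid genes summed to 0.446 to 0.590 in Irf8KO MDPs against 15.02 to 15.55 in WT MDPs and to 0.950 to 1.08 in Irf8KO cMoPs against 8.21 to 8.23 in WT cMoPs. Lymphoid genes summed to 206 to 213 in Irf8KO MDPs against 157 to 158 in WT MDPs and to 123 to 126 in Irf8KO cMoPs against 62.0 to 62.9 in WT cMoPs. In 32Dcl.3 cells the basophil and mast cell sum was 5.19 to 5.26 with both factors, 26.1 to 27.5 with IRF8, 18.7 to 19.0 with C/EBPalpha and 36.8 to 37.0 with empty vectors. The erythroid sum was 1.84 to 1.88 with both factors, 2.69 to 2.70 with IRF8, 1.74 to 1.90 with C/EBPalpha and 8.10 to 8.21 with empty vectors, and the lymphoid sum was 21.2 to 21.5 with both factors, 15.6 to 15.9 with IRF8, 36.0 to 36.9 with C/EBPalpha and 19.3 to 20.2 with empty vectors. Single genes made up most of some of these sums. For the lymphoid sum Nkg7 read 153 and 151 in WT MDPs. For the basophil and mast cell sum Gata2 read 29.4 and 29.3 with empty vectors. The part of such cells in the lectin results was not tested either.

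Likeness across all 16 arrays was described for the 4 members measured in at least 1 group of both systems, after each value was centred on the mean of its slide. Clec4d and Clec4e correlated with each other at a Pearson r of 0.838 and Clec5a and Clec12a at 0.898. Clec4d correlated with Clec5a at 0.345 and with Clec12a at 0.198, whereas Clec4e correlated with them at 0.666 and 0.561. Of 11204 genes those most like Clec4d were Skil (0.992), Mnt (0.989) and Serinc1 (0.983), and those most like Clec4e were Bnip3 (0.993), Susd6 (0.987) and Hook2 (0.986). Those most like Clec5a were Gpr137 (0.986), Arrb1 (0.980) and Adgre5 (0.967), and Trip4 (0.965) and Stradb (0.956) were most like Clec12a. Clec4d and Clec4e were well above background on all 16 arrays, Clec5a on 12 and Clec12a on 8, so the values for Clec5a and Clec12a rest partly on arrays that did not measure them. The arrays of a group and the scaling are shared by all genes, so these are descriptions of 16 arrays in 8 groups.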

How the data were processed

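Total RNA of the 16 samples was labelled with Cy3 and hybridised to 1-colour Agilent arrays, per the labels' protocols. The deposited scanner files hold intensity values (background-subtracted and detrended per array), raw median intensities, and 0/1 flags recorded as "other" values, made with Agilent Feature Extraction 10.7.3.1 and protocol GE1_107_Sep09, per the file headers. The authors' series values, also deposited, are intensities scaled between arrays, by software that the sources used here do not name. Each MDP and cMoP column equals the scanner values times a constant, while the 32Dcl.3 columns share 1 distribution, as quantile normalization gives. Both served as alternatives.

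Control spots and outlier spots were removed. Each array's signal was divided by its 75th percentile and taken as log2. A probe was kept when 1 or more of its system's 4 groups had it well above background on both arrays, and the brightest probe stood for a gene. Symbols came from RefSeq (GRCm38.p6) by accession: 26762 of 55681 probes had 1 symbol, 28919 none and 0 several. limma 3.58.1 (R 4.3.3, package data.table, version 1.17.8) was fitted to 4 group means over the 8 arrays of a system with an intensity trend, tests were two-sided, and p-values had Benjamini-Hochberg adjustment over all genes of a comparison. The fit was tested on simulated data. Dim groups were given bounds, with the faintest probe well above background on each array as the floor. Summed levels add the relative signals of a list's genes. Figures used matplotlib 3.10.9 (Python 3.11.15).

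Replicates correlated at 0.995 to 0.998, 37.3 to 56.2% of probes were well above background, and no spot was saturated. Only 2 arrays per group limit the precision. Deviations from group means of arrays with the same number had correlations of -0.0649 to 0.0712, so the experiment numbers were not taken as pairs. The members and gene lists were chosen with earlier results of these data known. All 9 members are named, with their change in every comparison that tested them, and of the signalling and other lectin genes at most the 3 largest called changes per direction measured on all arrays compared. Values of 2 genes that this rule and the likeness rule name are not reported here. Alternatives were other scalings, normexp (offset 50, on median signals), other filters, the mean of a gene's probes, no trend, a fit per slide, a replicate block, the deposited values, and leaving out each array.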

Additional observations from a re-analysis of the deposited data

Results flagged for a closer look

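The effect of Irf8 loss on Clec10a differed between the stages by -0.631 (cMoPs minus MDPs, log2), a larger fall in cMoPs, and that on Clec4d by -0.575, a smaller rise in cMoPs. Both were picked out because the test of the difference itself passed the threshold. Neither lost its call under any of the 18 alternatives in which the difference was recomputed, with ranges of -0.85 to -0.56 for Clec10a and -0.80 to -0.44 for Clec4d. Stage coincides with slide, and with Xist signal on the MDP arrays and Y-linked signal on the cMoP arrays, and the part of these in the differences was not tested.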

How the results depend on the processing

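The number of lectin genes called was 3 when probes had to be well above background on all 8 arrays (Irf8KO over WT MDPs and cMoPs, C/EBPalpha, and both factors over empty vectors and over IRF8), a filter that drops members. Without a filter it was 4 for the difference between stages and 9 for C/EBPalpha, both factors over empty vectors and both factors over IRF8, where dim members enter. Quantile normalization gave 4 for the difference between stages and 5 for both factors over C/EBPalpha, and array median scaling and the deposited values also gave 5 there. Leaving out 1 array gave 7 in MDPs, 5 to 7 in cMoPs, 2 for the difference between stages, 5 for C/EBPalpha and 4 for IRF8. It gave 5 for both factors over empty vectors, 3 to 4 over C/EBPalpha, 4 to 5 over IRF8, and 3 to 4 for the interaction. The count over all genes stayed within 1.5 times in all 136 recomputed counts (comparisons by alternative). Directions turned as follows. In the difference between stages Clec4a3 was 0.091 with quantile normalization and 0.87 with normexp, and -1.35 to 0.92 without 1 array. With normexp the difference between stages was 1.09 for Clec5a (adjusted p = 4.59e-05), 0.26 for Clec12a and -0.39 for Clec9a, each with a dim group. Clec12a was -0.061 to 0.57 with IRF8 when 1 array was left out, and 0.14 for both factors over C/EBPalpha with normexp. The Clec4n interaction was 0.19 with quantile normalization, 0.13 with normexp and 0.18 with the deposited values. With both factors over empty vectors, Plcg2 was 0.022 with quantile normalization. Hcst was 0.079 and Mgl2 0.15 with quantile normalization, 0.076 and 0.19 with the percentile over detected probes, and 0.10 and 0.13 with the deposited values. In Irf8KO over WT MDPs the call of Asgr2 was lost with normexp (-0.20, adjusted p = 0.175) and with no filter (adjusted p = 0.0727). The causes were not tested. Sizes moved most for dim genes with normexp, which adds an offset: in Irf8KO over WT MDPs Clec5a was 0.39, Clec12a 0.35 and Clec9a -0.58. Over all alternatives Clec4d with C/EBPalpha was -0.85 to -0.34 and Clec4e with C/EBPalpha 0.23 to 0.75. With the replicate block 1 lectin call changed, that of the Clec4n interaction (-0.15, adjusted p = 0.0527). Scaling by the array median moved the median change of all genes by -0.66, to -0.75, for both factors over empty vectors and by -0.31, to -0.34, for Irf8KO over WT cMoPs. Of 752 values of single lectin genes under the alternatives, 700 kept direction and side of the threshold. Signal over background limits Clec12a, Clec4a2, Clec4a3, Clec5a and Clec9a.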
